A study of Homo sapiens with 12 samples.

Results

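The genes described here are widely used to place a cell between the epithelial and the mesenchymal state, and were measured in breast cancer tissue cultured beside cardiac tissue, beside hepatic tissue or alone. The set was defined by gene name, and it was chosen with earlier results of these data known. It held the transcription factors ZEB1, ZEB2, SNAI1, SNAI2 and TWIST1 and the cadherins CDH1, CDH2 and CDH11. The intermediate filament protein VIM and the hyaluronan receptor CD44 completed it. These were 10 of the 58735 genes in the count table, and 8 of them were among the 17468 genes with enough counts to be tested. TWIST1 and CDH2 were not.

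In the epithelial-mesenchymal transition, cells give up tight contact with their neighbours and gain motility. The ZEB, SNAI and TWIST proteins are the transcription factors best known for driving it. ZEB and SNAI proteins bind the E-box DNA sequence and repress junction genes such as CDH1, which encodes E-cadherin. Cells that pass through the transition typically lose E-cadherin and carry vimentin filaments, and N-cadherin (CDH2) or cadherin 11 often takes the place of E-cadherin. In breast cancer the transition is studied for its link to invasion and spread to distant organs.

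The cancer cells in all groups were MDA-MB-231, a triple-negative human breast cancer line with a mesenchymal phenotype, carrying GFP and embedded in fibrin gel in a perfused AngioPlate, from which the cancer tissue was removed for RNA at day 5 after seeding. In the cardiac co-culture, the neighbouring tissue held iPSC-derived cardiomyocytes (from induced pluripotent stem cells) and 2% cardiac fibroblasts. In the hepatic co-culture it held HepG2, a human liver tumour line, with 2% lung fibroblasts. The monoculture had no neighbouring tissue. Each group had 4 libraries called biological replicates. The labels do not say whether these came from separate cultures. Every p-value therefore reflects only how much the libraries spread, which may be technical. Because bulk tissue was sequenced, fewer cells of a type and less RNA per cell cannot be told apart.

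Library totals were 27.0 to 37.4 M counts (M for 1e6) in the cardiac group, 26.2 to 42.4 M in the hepatic group and 35.0 to 42.0 M in monoculture. On the first principal component of all tested genes, with 28.5% of the variance, cardiac replicate 4 had a score of -24.9, inside the monoculture range, whereas cardiac replicates 1 to 3 scored 6.79 to 16.3. Calls of members that involve the cardiac group are therefore given with and without that library. Other cardiac values use all cardiac libraries unless stated. The tissue label was checked on a list of 9 genes that MDA-MB-231 is known to express little or not at all. CDH1 stayed under 1 CPM (counts per 1e6 counts, scaled by the TMM method) in every library, and EPCAM, an epithelial surface protein, averaged 7.51 CPM beside cardiac tissue, 6.72 CPM beside hepatic tissue and 8.12 CPM in monoculture. KRT19, an epithelial keratin on the same list, went against it with means of 401, 502 and 306 CPM in these groups.

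Promoter sequence was at hand for 5 of the 10 genes (ZEB1, ZEB2, VIM, CD44 and CDH2), in windows of 250 bases before to 50 after each annotated start site, from RefSeq on GRCh38.p14. The windows of VIM and ZEB2 are shown because both genes differed between groups. A ZEB1 window and one of CLDN7, which encodes the tight junction protein claudin 7, are shown because they hold the E-box form CACCTG known for ZEB and SNAI binding. Capitals mark CACCTG, or CAGGTG where the match is on the other strand, with no overlapping matches.
VIM (chr10:17227991-17228290, plus strand): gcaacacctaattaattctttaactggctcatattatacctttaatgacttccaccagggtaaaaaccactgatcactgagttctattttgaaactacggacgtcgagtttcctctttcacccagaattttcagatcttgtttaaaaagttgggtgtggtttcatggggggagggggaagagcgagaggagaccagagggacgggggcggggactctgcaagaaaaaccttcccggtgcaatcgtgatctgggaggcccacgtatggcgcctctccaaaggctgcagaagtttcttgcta
ZEB2 (chr2:144520070-144520369, minus strand): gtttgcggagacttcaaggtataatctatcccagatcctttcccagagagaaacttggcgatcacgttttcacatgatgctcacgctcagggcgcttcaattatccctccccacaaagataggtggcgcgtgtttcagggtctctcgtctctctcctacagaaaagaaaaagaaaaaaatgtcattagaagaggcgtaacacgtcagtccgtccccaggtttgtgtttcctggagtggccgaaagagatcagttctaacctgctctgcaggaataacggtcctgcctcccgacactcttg
ZEB1 (chr10:31318966-31319265, plus strand): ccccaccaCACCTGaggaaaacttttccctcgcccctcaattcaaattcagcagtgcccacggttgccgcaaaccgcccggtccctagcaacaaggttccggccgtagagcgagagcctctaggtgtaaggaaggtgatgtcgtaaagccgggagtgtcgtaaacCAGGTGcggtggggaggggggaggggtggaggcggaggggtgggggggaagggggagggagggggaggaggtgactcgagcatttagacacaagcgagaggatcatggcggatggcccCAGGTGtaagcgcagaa
CLDN7 (chr17:7262429-7262728, minus strand): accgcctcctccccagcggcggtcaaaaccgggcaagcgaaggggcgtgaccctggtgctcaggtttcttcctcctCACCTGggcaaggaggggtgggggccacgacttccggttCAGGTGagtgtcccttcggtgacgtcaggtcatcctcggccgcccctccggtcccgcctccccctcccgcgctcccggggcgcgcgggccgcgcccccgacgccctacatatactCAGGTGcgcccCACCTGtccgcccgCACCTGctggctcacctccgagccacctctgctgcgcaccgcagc
The ZEB1 window held 3 matches, the CLDN7 window 5, and the VIM and ZEB2 windows 0. Of the windows not shown, 1 more of ZEB1 held 1 match and the remaining ZEB1 windows held 0. The other CLDN7 window and the window of the claudin gene CLDN4 also held 0. Of all 35116 windows, 20.6% held at least 1 match. The share was 2 of 12 windows for the member genes, both of them in ZEB1, and 16 of 29 windows (55.2%) for epithelial adhesion and junction genes. It was 5 of 33 windows (15.2%) for mesenchymal effector genes. A match describes the letters only and is not a measured binding site.

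The 8 tested genes spanned a wide range of levels. Per kilobase of merged exon, the mean level in monoculture was 141 ± 20.5 CPM for VIM (SD, n = 4), which put it at the 99.0th percentile of the tested genes. CD44 followed with 36.3 ± 0.31 CPM per kilobase. SNAI2 with 8.93 ± 1.07 and ZEB1 with 8.51 ± 0.42 CPM per kilobase did not differ beyond their spread, and neither did CDH11 with 1.65 ± 0.54 and SNAI1 with 1.54 ± 0.28 CPM per kilobase. ZEB2 (0.93 ± 0.13) and CDH1 (0.0477 ± 0.0357) were lowest. Dividing by the longest transcript instead put ZEB1 (11.7) above SNAI2 (10.7 CPM per kilobase), and ZEB2 (2.42) above SNAI1 (1.54 CPM per kilobase).

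Beside hepatic tissue the SNAI pair moved in opposite directions. SNAI2, which encodes Slug, fell to about 0.40 times its monoculture level, while SNAI1, which encodes Snail, and VIM rose. Of the 8 tested genes, 3 passed edgeR's quasi-likelihood test at an adjusted p under 0.05 in this comparison, against 28.0% of all tested genes (14.4% higher and 13.6% lower). The same 3 passed without cardiac replicate 4, where 31.2% of all genes did. The libraries of the hepatic co-culture and monoculture did not overlap for 4 of the 8 (ZEB1, SNAI1, SNAI2 and VIM), against 30.5% of all tested genes. Beside cardiac tissue 0 of the 8 passed edgeR's test against monoculture, where 8.26% of all tested genes passed. There, 5 of the 8 had an unadjusted p under 0.05 (25.7% of all genes did), DESeq2 called 2, and edgeR called 4 once cardiac replicate 4 was left out, 2 higher and 2 lower. Of all genes 19.1% were then called, 9.90% higher and 9.16% lower. Between the co-cultures, SNAI2 and ZEB2 were higher beside cardiac tissue, 2 of 8 against 6.18% of all tested genes (3.27% higher beside cardiac tissue). Both also passed without cardiac replicate 4, where 4.79% of all genes did. Both co-culture effects were measured against the same monoculture libraries, so they are not independent of each other.

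**Figure D1:**
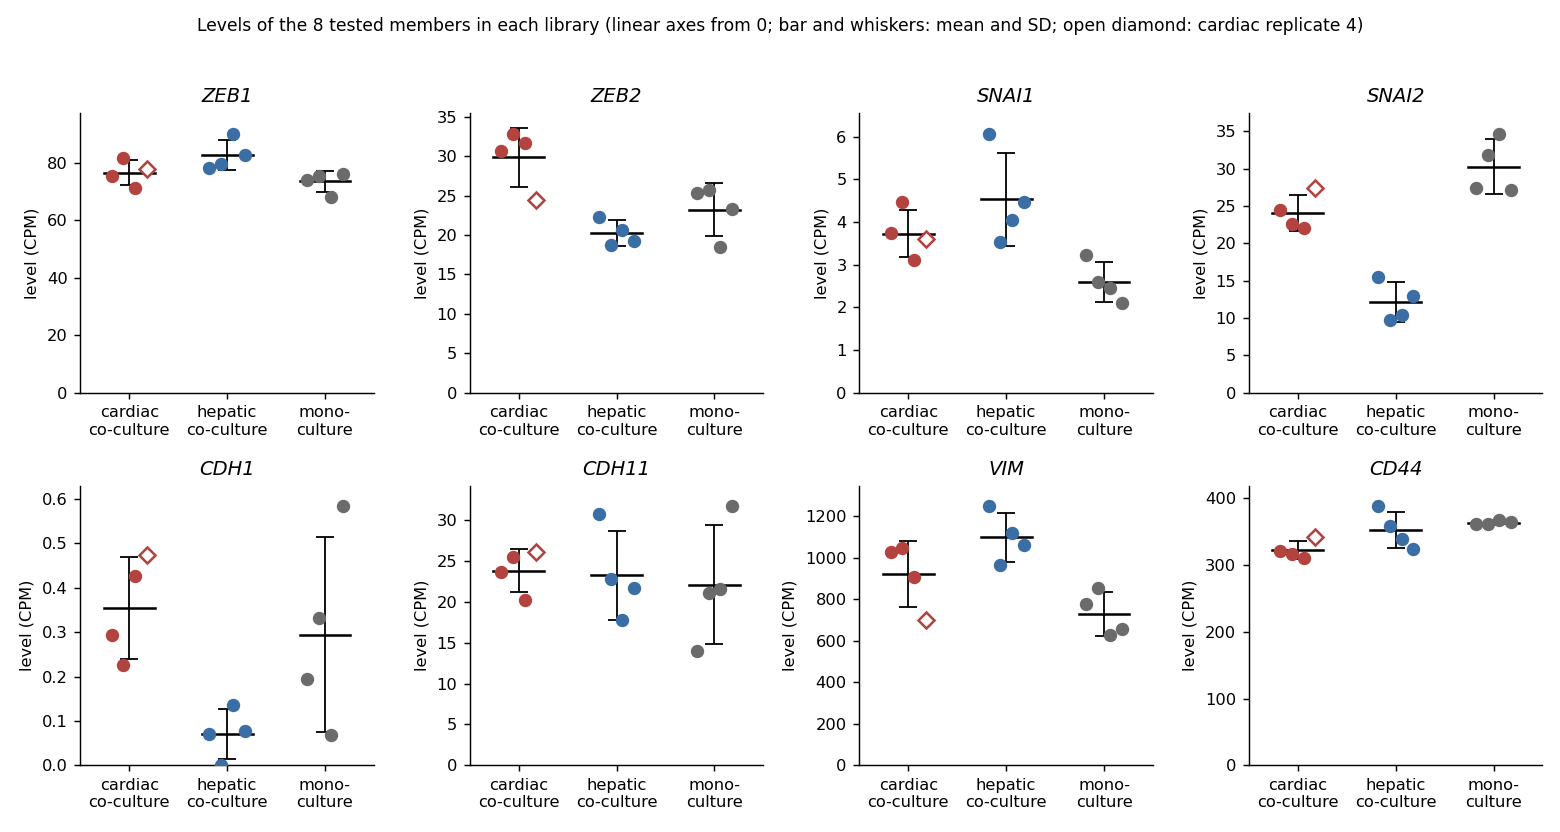
Levels (CPM, linear axes from 0) of the 8 tested genes in each library of the cardiac co-culture, hepatic co-culture and monoculture, with the mean and SD of 4 libraries as bar and whiskers and cardiac replicate 4 as an open diamond. The 4 hepatic libraries sit at 9.73 to 15.5 CPM for SNAI2, below all libraries of the other groups, and cardiac replicate 4 is the lowest cardiac library for ZEB2 and VIM.

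SNAI2 (ENSG00000019549, GRCh38 chromosome 8, 48917604 to 48921740, minus strand, protein coding) had 24.4, 22.6, 22.0 and 27.4 CPM in cardiac replicates 1 to 4. The hepatic libraries had 15.5, 9.73, 10.3 and 13.0 CPM, and the monoculture libraries 27.4, 31.9, 34.7 and 27.2 CPM. The hepatic libraries lay below every other library, and the highest cardiac library was replicate 4, level with the lowest of monoculture. Against monoculture, SNAI2 fell by 1.32 ± 0.13 on the log2 scale in the hepatic co-culture (edgeR's quasi-likelihood test, adjusted p = 2.25e-06). The change in the cardiac co-culture was -0.33 ± 0.13 and did not pass (edgeR adjusted p = 0.120). Without cardiac replicate 4 it was -0.40 ± 0.14 and passed (edgeR adjusted p = 0.0472). Set directly against the hepatic co-culture, the cardiac co-culture was higher by 1.00 ± 0.13 (edgeR adjusted p = 1.01e-04), and by 0.94 ± 0.14 without cardiac replicate 4 (adjusted p = 2.42e-04).

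SNAI1 (ENSG00000124216, chromosome 20, 49982999 to 49988886, plus strand) was a much weaker transcript, with 102 to 137 counts in a cardiac, 117 to 172 in a hepatic and 76 to 117 in a monoculture library. Its levels were 3.74, 4.46, 3.11 and 3.61 CPM in the cardiac co-culture. They were 6.07, 3.54, 4.04 and 4.48 CPM in the hepatic libraries, against 3.24, 2.60, 2.45 and 2.11 CPM in monoculture. All hepatic libraries exceeded all monoculture libraries, with hepatic replicate 1 the highest, while 1 cardiac library overlapped monoculture. SNAI1 rose by 0.80 ± 0.21 in the hepatic co-culture (edgeR adjusted p = 0.00800). The difference between cardiac co-culture and monoculture was 0.52 ± 0.21 (adjusted p = 0.125), and the co-cultures differed by -0.28 (95% interval -0.71 to 0.15; edgeR adjusted p = 0.489).

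The balance of the pair separated all groups. The cardiac libraries held 6.57 ± 1.09 SNAI2 reads per SNAI1 read (5.08 to 7.60), the hepatic libraries 2.69 ± 0.17 (2.55 to 2.90) and the monoculture libraries 11.9 ± 2.46 (8.46 to 14.2; SD, n = 4 each). These ranges did not overlap, and the cardiac mean was 6.23 without replicate 4. The ratio is taken within a library, so it does not depend on the scaling between libraries, and it is given as a description without a test. It is built from the 2 genes described above, so it is not independent of their changes. How many other gene pairs separate all groups was not computed.

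ZEB1 and ZEB2, the paired zinc finger repressors, did not move together. ZEB2 (ENSG00000169554, chromosome 2, 144364364 to 144524583, minus strand) had 30.6, 32.8, 31.6 and 24.4 CPM in the cardiac co-culture. It had 22.3, 18.8, 20.6 and 19.2 CPM in the hepatic libraries and 25.3, 25.8, 18.5 and 23.2 CPM in monoculture. Cardiac replicates 1 to 3 lay above all other libraries, and cardiac replicate 4 within the monoculture range. The cardiac co-culture exceeded the hepatic one by 0.56 ± 0.12 (edgeR adjusted p = 0.00595), and by 0.65 ± 0.11 without cardiac replicate 4 (adjusted p = 9.25e-04). Against monoculture the cardiac difference was 0.36 ± 0.11 (edgeR adjusted p = 0.0557). It rose to 0.45 ± 0.11 and passed without cardiac replicate 4 (adjusted p = 0.00762). The hepatic difference from monoculture was -0.20 ± 0.12 (edgeR adjusted p = 0.217).

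ZEB1 (ENSG00000148516, chromosome 10, 31318495 to 31529814, plus strand) averaged 76.7 ± 4.32 CPM in the cardiac libraries, 82.8 ± 5.27 in the hepatic libraries and 73.6 ± 3.62 CPM in monoculture (SD, n = 4 each). The hepatic libraries (78.4 to 90.2 CPM) lay above the monoculture libraries (68.3 to 76.3 CPM), but the difference of 0.17 ± 0.07 did not pass (edgeR adjusted p = 0.0711). For the cardiac co-culture the 95% interval ran from -0.08 to 0.20 against monoculture and from -0.25 to 0.03 against the hepatic co-culture. There were 39.1 ± 5.51 ZEB2 reads per 100 ZEB1 reads in the cardiac libraries, 24.5 ± 2.66 in the hepatic and 31.4 ± 3.38 in the monoculture libraries. The cardiac (31.3 to 44.3) and hepatic (22.8 to 28.5) ranges did not overlap. Each overlapped the monoculture range of 27.1 to 34.2. The exons of ZEB1 share 366 bases with the antisense gene ZEB1-AS1, which averaged 8.01, 10.1 and 6.30 CPM in the cardiac, hepatic and monoculture libraries and was higher in the hepatic co-culture than in monoculture (edgeR adjusted p = 0.00205). Whether reads were counted by strand is not given, so reads of the pair cannot be told apart.

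**Figure D2:**
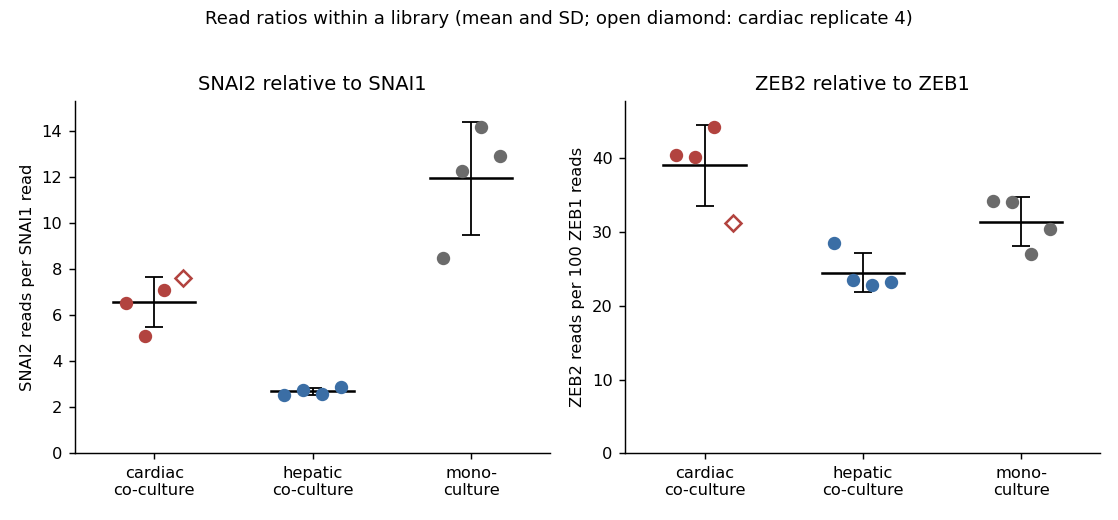
SNAI2 reads per SNAI1 read (left) and ZEB2 reads per 100 ZEB1 reads (right) in each library of the cardiac co-culture, hepatic co-culture and monoculture, with the mean and SD of 4 libraries; cardiac replicate 4 is an open diamond. The SNAI ratio falls in separate ranges of 5.08 to 7.60, 2.55 to 2.90 and 8.46 to 14.2, while the cardiac and hepatic ZEB ratios each overlap monoculture.

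Summed per kilobase of merged exon, SNAI2 made up 36.7 ± 2.77% of the 4 detected factors in the cardiac co-culture, 21.4 ± 3.21% in the hepatic co-culture and 44.8 ± 4.10% in monoculture. ZEB1 made up 45.7 ± 1.10%, 57.8 ± 5.72% and 42.8 ± 3.13% in the same groups (SD, n = 4 each). In each cardiac library (44.6 to 47.1% ZEB1, against 33.2 to 40.0% SNAI2) and each hepatic library ZEB1 held the larger share, whereas in monoculture the shares of ZEB1 and SNAI2 did not differ beyond their spread. These shares depend on the length used. Per kilobase of the longest transcript, the monoculture means were 11.7 CPM for ZEB1 and 10.7 CPM for SNAI2, and shares were not computed that way. TWIST1 (ENSG00000122691, chromosome 7, 19020991 to 19117672, minus strand), a basic helix-loop-helix factor, had 0 counts in all 12 libraries. A count of 0 allows up to 3 counts, which is 0.0707 to 0.114 CPM across these libraries, counting error only.

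VIM (ENSG00000026025, chromosome 10, 17228259 to 17237593, plus strand) encodes vimentin, the filament protein by which mesenchymal cells are recognised. It had 1026, 1047, 906 and 700.5 CPM in the cardiac libraries, 1246, 964, 1120 and 1061 CPM in the hepatic libraries, and 775, 854, 626 and 657 CPM in monoculture. Every hepatic library exceeded every monoculture library. Cardiac replicates 1 to 3 did so too, and cardiac replicate 4 lay inside the monoculture range. VIM rose by 0.59 ± 0.13 in the hepatic co-culture (edgeR adjusted p = 0.00306). In the cardiac co-culture the difference was 0.34 ± 0.13 (adjusted p = 0.108), and 0.45 ± 0.10 without replicate 4 (edgeR adjusted p = 0.00541). The co-cultures differed by -0.26 ± 0.13 (edgeR adjusted p = 0.273), and by -0.14 ± 0.10 without cardiac replicate 4, and their libraries overlapped.

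VIM shares 641 exon bases with the antisense gene VIM-AS1, which had 5.32 ± 0.96, 6.89 ± 0.69 and 4.42 ± 0.69 CPM in the cardiac, hepatic and monoculture libraries and also rose in the hepatic co-culture (0.64 ± 0.17, edgeR adjusted p = 0.00814). Its level was far below that of VIM. Fibroblasts, which both neighbouring tissues held, express VIM as well. THY1, POSTN and DPT, 3 of 15 fibroblast markers, had 0 counts in all libraries, and 8 stayed under 1 CPM in every library. Fibroblast markers summed to 50.4 ± 6.74 CPM beside cardiac tissue (46.6 to 60.5), 42.8 ± 10.5 CPM beside hepatic tissue (31.4 to 56.8) and 46.5 ± 3.30 CPM in monoculture (43.9 to 50.8). Between hepatic co-culture and monoculture the exact two-sided permutation test of this sum gave p = 0.543 (adjusted p = 0.611 over 18 sums, n = 4 each), and between cardiac co-culture and monoculture p = 0.486 (exact permutation, adjusted p = 0.583). The sum joined opposite changes: of the 8 tested markers 2 rose and 2 fell in the hepatic co-culture, and 0 passed in the cardiac co-culture against monoculture. These 4 are named after their values were seen. The matrix proteoglycan gene DCN averaged 2.02, 0.278 and 2.48 CPM in the cardiac, hepatic and monoculture libraries and fell by 3.10 ± 0.42 beside hepatic tissue (edgeR adjusted p = 3.96e-05). FBLN1, encoding the matrix protein fibulin 1, averaged 3.94, 0.856 and 6.12 CPM in the same order and fell by 2.82 ± 0.26 (edgeR adjusted p = 7.88e-07). The collagen genes COL1A2 (1.80, 4.55 and 1.56 CPM) and COL3A1 (0.350, 0.634 and 0.0891 CPM) rose by 1.55 ± 0.41 and 2.84 ± 0.91 beside hepatic tissue (edgeR adjusted p = 0.0121 and 0.0257). The COL3A1 call was lost without monoculture replicate 1, 2 or 3 or hepatic replicate 2 (adjusted p up to 0.0800). The part of the fibroblast markers in the VIM result was not tested.

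Of the other marker lists, 9 endothelial genes summed to 85.8 ± 4.03 CPM beside cardiac tissue, 103.9 ± 4.06 CPM beside hepatic tissue and 80.0 ± 5.28 CPM in monoculture (n = 4 each). Against monoculture the exact permutation test gave p = 0.143 (adjusted p = 0.234) for the cardiac co-culture. For the hepatic co-culture it gave p = 0.0286, the smallest that 4 against 4 allow (exact permutation, adjusted p = 0.0643). ESAM gave 69.0, 80.3 and 64.5 CPM of these and rose in the hepatic co-culture (0.32 ± 0.06, edgeR adjusted p = 0.00127). Others, named after their values were seen, moved in opposite directions there: TIE1, an endothelial receptor kinase, rose by 3.10 ± 0.38 (edgeR adjusted p = 1.60e-05) and VWF, the von Willebrand factor, by 2.26 ± 0.40 (adjusted p = 4.96e-04), while KDR, a VEGF receptor, fell by 1.34 ± 0.27 (adjusted p = 0.00129). Their mean levels were 1.93, 3.15 and 0.367 CPM for TIE1, 1.62, 2.86 and 0.596 CPM for VWF and 2.35, 1.26 and 3.22 CPM for KDR in the cardiac, hepatic and monoculture libraries. In the cardiac co-culture TIE1 rose by 2.40 ± 0.38 (edgeR adjusted p = 0.00324) and VWF by 1.44 ± 0.40 (adjusted p = 0.0362), the VWF call lost in 6 of 12 fits with 1 library left out. CDH5, which defines endothelium, had 0 to 5 counts, and 4 of the 9 stayed under 1 CPM throughout. The 15 hepatocyte markers summed to 166 ± 20.3 CPM (147 to 188) beside cardiac tissue, 162 ± 21.4 CPM (135.6 to 188) beside hepatic tissue and 126 ± 14.5 CPM (109 to 144) in monoculture. Against monoculture the exact permutation p was 0.0286 (adjusted p = 0.0643) for the cardiac and 0.0571 (adjusted p = 0.103) for the hepatic co-culture. They were almost wholly FOXA2 and SERPINA1, with APOA2 at 0 in all libraries, ALB at 0 to 14 counts and 12 of the 15 under 1 CPM. FOXA2 averaged 78.9, 109 and 67.3 CPM in the cardiac, hepatic and monoculture libraries. FGG, named after its values were seen, averaged 3.59, 5.06 and 0.889 CPM, and SERPINA1 82.0, 46.5 and 57.4 CPM. With any 1 library left out, FOXA2 and FGG rose beside hepatic tissue (edgeR adjusted p at most 7.50e-05 and 0.0167). FGG also passed beside cardiac tissue, a call kept in 5 of 12 such fits. The 15 cardiomyocyte markers summed to 3.04 ± 1.73 CPM (1.39 to 4.87) in the cardiac co-culture, against 2.86 ± 0.42 CPM (2.47 to 3.35) in monoculture, and 14 of them stayed under 1 CPM. MYH6 and MYL7, named after their values were seen, reached 21 and 8 counts (0.553 and 0.211 CPM) in cardiac replicate 4. They had 0 counts in every hepatic and monoculture library, and their cardiac means leave no reads for cardiac replicates 1 to 3. Why cardiac replicate 4 scored inside the monoculture range on the first principal component was not tested. The part of these lists in the changes of VIM, SNAI1 and SNAI2 was not tested.

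CD44 (ENSG00000026508, chromosome 11, 35138870 to 35232402, plus strand), the cell surface receptor for hyaluronan, had 321, 316, 310 and 342 CPM in the cardiac co-culture. It had 387, 359, 339 and 324 CPM in the hepatic libraries and 360, 362, 368 and 364 CPM in monoculture. The monoculture libraries were nearly equal, and all cardiac libraries lay below them, the only tested member for which these groups did not overlap (15.2% of all tested genes had no overlap). The cardiac difference was -0.17 ± 0.07 (edgeR adjusted p = 0.102). Without replicate 4 it was -0.20 ± 0.07 and passed (edgeR adjusted p = 0.0349). The hepatic difference from monoculture was -0.04, with a 95% interval of -0.18 to 0.09, and the co-cultures differed by -0.13 ± 0.07 (edgeR adjusted p = 0.277). Gene counts do not tell the standard and variant forms of CD44 apart.

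CDH1 (ENSG00000039068, chromosome 16, 68737225 to 68835548, plus strand) was close to absent. Its counts were 8, 6, 14 and 18 in the cardiac libraries, 2, 0, 4 and 2 in the hepatic libraries and 7, 13, 3 and 21 in the monoculture libraries. The cardiac libraries all lay above the hepatic ones, but monoculture replicate 3 lay within the hepatic range. None of its differences passed the test: -2.08 ± 0.82 for hepatic co-culture against monoculture (edgeR adjusted p = 0.0641), 0.30 ± 0.67 for cardiac co-culture against monoculture (adjusted p = 0.827) and 2.37 ± 0.81 for cardiac against hepatic co-culture (edgeR adjusted p = 0.0925). With so few reads, the 95% interval of the last difference ran from 0.67 to 4.07. Between the co-cultures, CDH1 was the third gene besides ZEB2 and SNAI2 whose libraries did not overlap (3 of 8, against 11.9% of all tested genes).

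CDH2 (ENSG00000170558, chromosome 18, 27950966 to 28177446, minus strand), the N-cadherin of the classical cadherin switch, had 0, 2, 4 and 14 counts in the cardiac libraries, 6, 6, 4 and 10 in the hepatic libraries and 0, 4, 5 and 10 in the monoculture libraries. All groups overlapped, and at this depth no difference was detectable. CDH11 (ENSG00000140937, chromosome 16, 64943753 to 65126112, minus strand), a mesenchymal cadherin, was the only member cadherin above 1 CPM. It averaged 23.8 ± 2.65 CPM in the cardiac libraries, 23.2 ± 5.47 CPM in the hepatic libraries and 22.1 ± 7.25 CPM in monoculture (SD, n = 4 each), with 14.0 to 31.6 CPM in the monoculture libraries alone. Its differences were 0.11 (95% interval -0.37 to 0.59), 0.07 (-0.40 to 0.55) and 0.04 (-0.44 to 0.51) on the log2 scale for cardiac co-culture against monoculture, hepatic co-culture against monoculture and cardiac against hepatic co-culture.

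**Figure D3:**
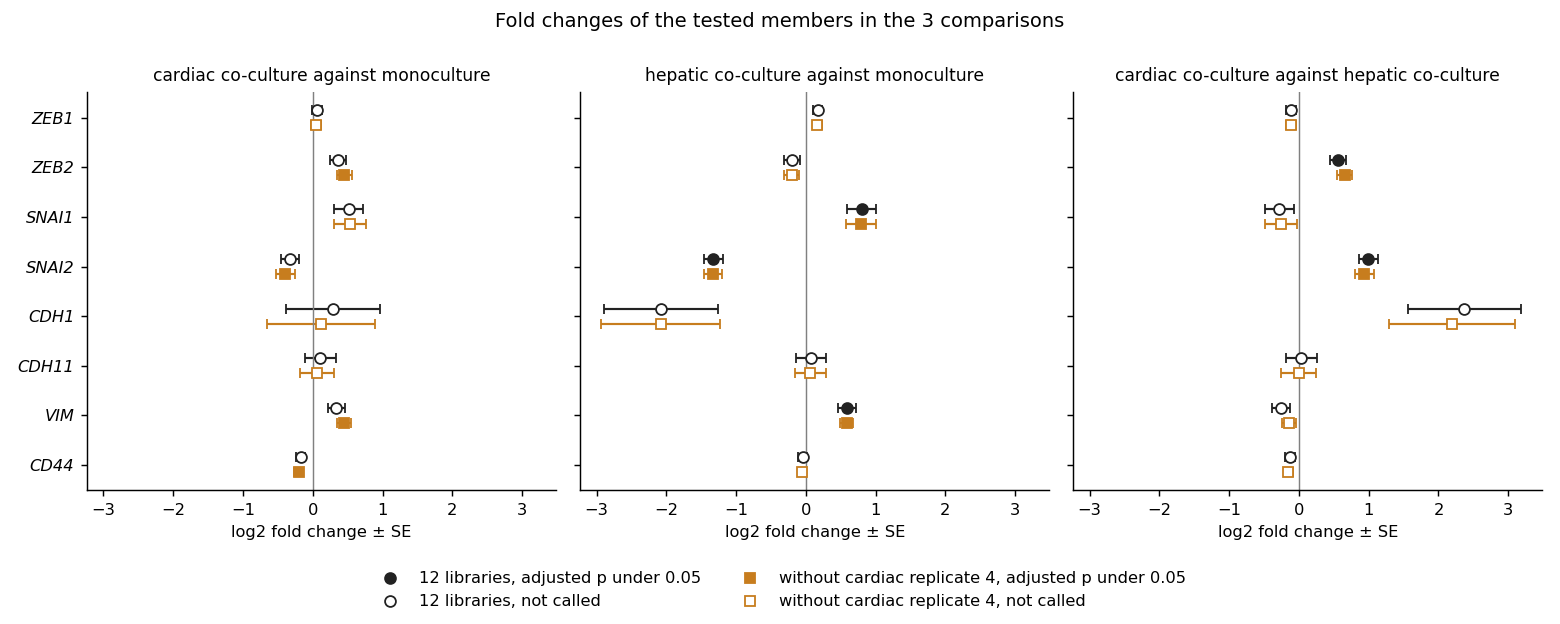
Log2 fold changes with their SE for the 8 tested genes in the 3 comparisons, from all 12 libraries (circles) and without cardiac replicate 4 (squares), filled where the adjusted p was under 0.05. SNAI2, SNAI1 and VIM are filled in the hepatic comparison both ways, whereas ZEB2, SNAI2, VIM and CD44 are filled against monoculture in the cardiac comparison only without cardiac replicate 4.

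Genes that work with the 10 members were grouped in lists by their known role. Their counts stand beside the shares of all tested genes, which against monoculture were 28.0% for the hepatic co-culture (14.4% higher, 13.6% lower) and 8.26% for the cardiac co-culture (4.93% higher, 3.33% lower). Among 12 tested transcription factors linked to the transition, 2 rose and 0 fell in the hepatic co-culture against monoculture, a share below the 28.0% of all tested genes called in either direction. SOX4, a factor known to act with TGF-beta signalling, rose by 1.57 ± 0.24 (edgeR adjusted p = 0.00112), with 321 ± 39.1 CPM in hepatic libraries and 108 ± 19.7 CPM in monoculture. SOX9, a progenitor cell factor, rose by 0.85 ± 0.12 (adjusted p = 1.18e-04) and was lower in the cardiac than in the hepatic co-culture by edgeR (-0.68 ± 0.12, adjusted p = 0.00214). The list's median was 0.18, against 0.01 over all tested genes. In the cardiac co-culture 1 of the 12 rose against monoculture. Without cardiac replicate 4 the list had 4 calls in the hepatic and 3 in the cardiac comparison with monoculture, and 0 in the cardiac comparison without monoculture replicate 1, 3 or 4 or cardiac replicate 1, 2 or 3.

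Among 12 tested factors that maintain the epithelial state, 3 rose and 2 fell beside hepatic tissue (median 0.28). TP63, the p63 factor of basal epithelium, rose by 2.50 ± 0.21 (edgeR adjusted p = 3.41e-07), with 11.01 ± 1.19 CPM in hepatic libraries and 1.95 ± 0.58 CPM in monoculture, and by 0.99 ± 0.21 in the cardiac co-culture (adjusted p = 0.0130, 0.0539 without cardiac replicate 2). The 2 epithelial ETS factors split: ELF3 rose by 0.87 ± 0.17 (edgeR adjusted p = 9.98e-04) while EHF fell by 1.11 ± 0.15 (adjusted p = 3.30e-05) in the hepatic co-culture. EHF was higher in the cardiac than in the hepatic co-culture by 1.07 ± 0.15 (edgeR adjusted p = 1.23e-04).

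Of 28 tested adhesion, junction and polarity genes, 7 rose and 6 fell in the hepatic co-culture (median 0.01), and 3 rose and 0 fell in the cardiac co-culture. The 13 hepatic calls became 8 without monoculture replicate 3, monoculture replicate 4 or hepatic replicate 4. In these fits the 4892 hepatic calls over all genes became 3660, 3712 and 4471. The 3 cardiac calls became 1 without monoculture replicate 3 or 4 or cardiac replicate 1, 2 or 3, 6 without hepatic replicate 1, and 5 without cardiac replicate 4. Over all genes, 1443 cardiac calls became 2017 without hepatic replicate 1. CLDN7, whose promoter window is shown above, rose by 1.14 ± 0.14 beside hepatic tissue (edgeR adjusted p = 1.52e-05) and by 0.88 ± 0.14 beside cardiac tissue (adjusted p = 0.00324). It had 19.2 ± 3.61 CPM in the cardiac libraries, 22.8 ± 1.95 CPM in the hepatic libraries and 10.4 ± 1.50 CPM in monoculture. CLDN4, another claudin, rose by 0.83 ± 0.09 in the hepatic co-culture (edgeR adjusted p = 2.62e-06), and PKP2, a desmosome plaque protein, fell by 1.19 ± 0.11 (adjusted p = 1.04e-06). Between the co-cultures PKP2 was higher beside cardiac tissue by 0.95 ± 0.11 (edgeR adjusted p = 1.94e-05), while CLDN4 was lower (-0.53 ± 0.09, adjusted p = 7.04e-04), as was the polarity gene LLGL2 (-0.37 ± 0.08, adjusted p = 0.0106).

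Of 26 tested mesenchymal effector genes, 9 rose and 4 fell in the hepatic co-culture (median 0.14), and 5 rose and 2 fell in the cardiac co-culture (median 0.12). The 7 cardiac calls became 12 without cardiac replicate 4 and 2 without cardiac replicate 2. MMP14, a membrane-bound matrix protease, rose by 1.02 ± 0.13 beside hepatic tissue (edgeR adjusted p = 8.45e-05) and by 0.63 ± 0.13 beside cardiac tissue (adjusted p = 0.0147, 0.0518 without cardiac replicate 2). TNC, the matrix protein tenascin C, rose by 0.74 ± 0.09 and 0.49 ± 0.09 in these comparisons (edgeR adjusted p = 1.21e-05 and 0.00593). ITGA5, the fibronectin receptor subunit, rose in the cardiac co-culture by 0.68 ± 0.12 (edgeR adjusted p = 0.00960). CALD1, which binds actin filaments, was 1 of the 4 that fell beside hepatic tissue (-0.34 ± 0.07, edgeR adjusted p = 0.00153). Its cardiac difference from monoculture was 0.005 ± 0.070 (edgeR adjusted p = 0.976). CALD1 was thus higher in the cardiac than in the hepatic co-culture (0.35 ± 0.07, edgeR adjusted p = 0.00506).

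**Figure D4:**
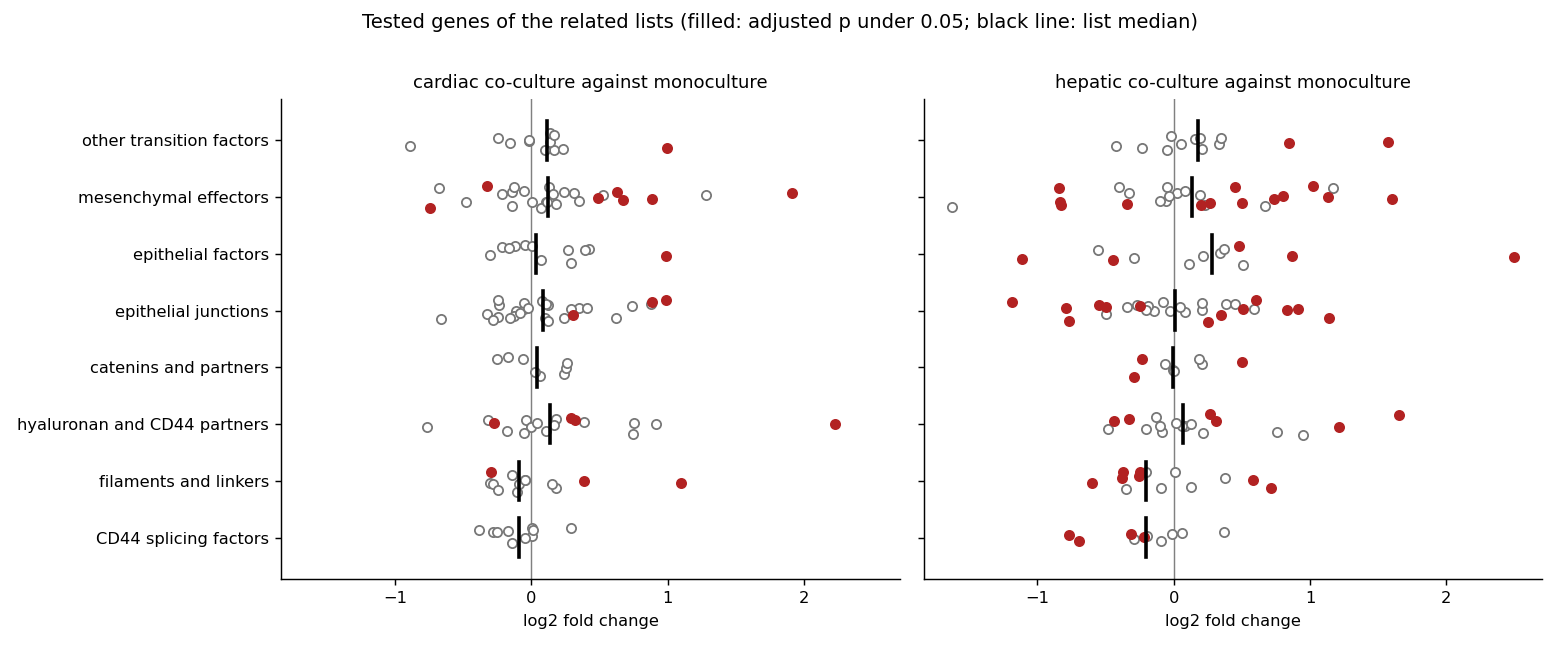
Log2 fold changes of the tested genes in 8 of the lists, for cardiac co-culture (left) and hepatic co-culture (right) against monoculture, filled where the adjusted p was under 0.05, with the list median as a black line. Filled points stand on both sides of 0 in most hepatic lists, such as 7 higher and 6 lower of 28 junction genes and 9 higher and 4 lower of 26 mesenchymal effectors.

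Among 18 tested genes of hyaluronan turnover and CD44 binding, 4 rose and 2 fell beside hepatic tissue and 3 rose and 1 fell beside cardiac tissue. The 4 cardiac calls became 8 without cardiac replicate 4, and 0 without monoculture replicate 1, 3 or 4 or cardiac replicate 1, 2 or 3. HYAL1, a hyaluronidase, rose by 1.65 ± 0.31 in the hepatic co-culture (edgeR adjusted p = 7.18e-04), and CEMIP, which drives hyaluronan breakdown, by 1.21 ± 0.17 (adjusted p = 3.99e-04). CEMIP was lower in the cardiac than in the hepatic co-culture (-0.83 ± 0.17, edgeR adjusted p = 0.0140). EZR, encoding ezrin, which links CD44 to actin, fell by 0.44 ± 0.07 beside hepatic tissue (adjusted p = 2.69e-04) and by 0.27 ± 0.07 beside cardiac tissue, where the edgeR adjusted p of 0.0306 reached 0.110 with 1 library left out. Of 10 splicing factors known to act on CD44 exons, 0 rose and 4 fell beside hepatic tissue (median -0.20), and 0 passed beside cardiac tissue (3 fell there without cardiac replicate 4). HNRNPM fell by 0.76 ± 0.14 (edgeR adjusted p = 0.00131) and SRSF1 by 0.69 ± 0.12 (adjusted p = 7.79e-04). Only 2 of these 4 calls were left without monoculture replicate 1, monoculture replicate 4 or hepatic replicate 3. The 4892 hepatic calls over all genes then became 4042, 3712 and 3705.

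Of 13 tested filament and linker genes, 2 rose and 5 fell in the hepatic co-culture (median -0.20) and 2 rose and 1 fell in the cardiac co-culture, where 6 passed without cardiac replicate 4 and 0 without monoculture replicate 3 or cardiac replicate 2. The filament genes themselves diverged in the hepatic co-culture: KRT19 rose by 0.71 ± 0.10 (edgeR adjusted p = 9.08e-05) and NES, encoding nestin, by 0.58 ± 0.09 (adjusted p = 1.33e-04), as VIM did, while KRT7 fell by 0.60 ± 0.08 (adjusted p = 6.14e-05). In the cardiac co-culture DES, encoding desmin, rose by 1.09 ± 0.25 to a level of 2.33 ± 0.33 CPM, against 1.09 ± 0.27 CPM in monoculture (edgeR adjusted p = 0.0165, up to 0.0674 without monoculture replicate 3 or cardiac replicate 2).

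In the hepatic co-culture, 4 of 14 enzymes known to modify or degrade the transition factors rose and 1 fell. There were 3 calls in all without monoculture replicate 2, monoculture replicate 4 or hepatic replicate 3. The 4892 calls over all genes then became 4628, 3712 and 3705. PAK1, a kinase known to phosphorylate Snail, rose by 0.87 ± 0.09 (edgeR adjusted p = 2.15e-06), LOXL2, a lysyl oxidase, by 0.59 ± 0.08 (adjusted p = 2.90e-05) and the kinase CSNK1E by 0.59 ± 0.08 (adjusted p = 5.48e-05). LOXL2 also rose in the cardiac co-culture (0.39 ± 0.08, edgeR adjusted p = 0.00863), and PAK1 was lower there than in the hepatic co-culture (-0.65 ± 0.09, adjusted p = 1.00e-04). Of 16 corepressors and chromatin partners, 1 rose and 2 fell beside hepatic tissue, and 0 rose and 1 fell beside cardiac tissue. Without cardiac replicate 4 these became 6 and 5 calls. LIMD1, a LIM domain corepressor, rose by 0.48 ± 0.08 (edgeR adjusted p = 3.70e-04) and SUZ12, a Polycomb subunit, fell by 0.29 ± 0.07 (adjusted p = 0.00488). Of 8 catenins and partners 1 rose and 2 fell beside hepatic tissue, with ARVCF up by 0.50 ± 0.13 and PKP4 down (-0.29 ± 0.08; edgeR adjusted p = 0.00623 and 0.0105). Of 7 tested classical cadherins outside the set 1 rose beside hepatic tissue, CDH3 or P-cadherin (0.91 ± 0.30, edgeR adjusted p = 0.0284), whose call was lost without monoculture replicate 3 or 4 or hepatic replicate 1 or 4 (adjusted p up to 0.0950). CDH3 was also the 1 that rose beside cardiac tissue (0.99 ± 0.30, edgeR adjusted p = 0.0462), a call kept only without monoculture replicate 2, hepatic replicate 1 or cardiac replicate 4 (adjusted p up to 0.187). It averaged 3.07 ± 1.14, 2.90 ± 0.31 and 1.54 ± 0.58 CPM in the cardiac, hepatic and monoculture libraries. CDH10, a cadherin named after its values were seen, was lower in the cardiac co-culture (0.0721 ± 0.0892 CPM) than in the hepatic one (0.518 ± 0.271 CPM; -2.79 ± 0.81, edgeR adjusted p = 0.0457). Its libraries overlapped, and the call was lost in 10 of 12 fits with 1 library left out.

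The genes whose centred log2 level stayed closest to that of a member over the 12 libraries were sought among 10011 or 10012 protein-coding genes with a mean logCPM above 3. Closest to SNAI2 were SLC26A2 (root mean square difference 0.18) and RCL1 (0.20), where SNAI2 itself had a root mean square deviation of 0.60. For SNAI1, which varied by 0.40, they were PPDPF (0.15) and CES3 (0.16). For ZEB2, which varied by 0.28, they were IL4R (0.10) and ARSD (0.11), and for VIM, which varied by 0.31, CDKN1B (0.07) and IGBP1 (0.07).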

How the data were processed

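Poly(A)-selected RNA of the cancer tissue was sequenced, per the labels' protocols. The authors deposited raw read counts for 58735 Ensembl genes in 12 libraries, without normalization. The submitters' processing notes name HISAT2 2.2.1, featureCounts 2.0.6, DESeq2 1.42.0 and GRCh38. Order, annotation release and strand setting of these steps were not given in the sources used here. Both stranded and unstranded library preparation are described in the labels' protocols, so antisense reads cannot be told apart. Symbols, coordinates and exon lengths come from GENCODE 29, which held all 58735 identifiers.

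After filterByExpr and TMM scaling, the robust quasi-likelihood test of edgeR 4.0.16 (R 4.3.3) was fitted once to all 12 libraries by group. Its p-values are two-sided, adjusted by Benjamini-Hochberg over 17468 tested genes (99.9% of counts), with a threshold of 0.05. The common biological coefficient of variation was 14.9%. Intervals are 95%. Summed CPM of 6 marker lists was compared by exact permutation tests. The fit was tested on simulated data. Of 256 genes in the lists 255 were found. The text names all members, up to 3 genes per list and comparison with the smallest adjusted p and no overlap between groups, and the 2 genes most like each called member; 1 gene that the rule takes is not reported here. The members and lists were chosen with earlier results of these data known. Same-numbered replicates did not deviate together (correlations -0.08 to 0.11), so they were not paired. Alternatives were DESeq2 1.42.0, its size factors, upper-quartile scaling, no count filter, replicate and library-number blocks, only the 2 groups compared, and each library left out.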

Additional observations from a re-analysis of the deposited data

Results flagged for a closer look

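ZEB2 reads per 100 ZEB1 reads were 28.5 in hepatic replicate 1, apart from the other hepatic libraries at 22.8 to 23.5; chance alone marks about 1 in 20 groups, and 33 groups of 4 libraries were screened. The effects of the co-cultures on SNAI2 differed, with the cardiac effect above the hepatic one by 1.00 on the log2 scale by edgeR. Those on ZEB2 differed likewise, by 0.56.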

How the results depend on the processing

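The hepatic changes of SNAI2, SNAI1 and VIM passed edgeR's or DESeq2's test in 19 of 19 alternatives (adjusted p at most 2.07e-04, 0.0359 and 0.0179). Between the co-cultures SNAI2 passed in 19 and ZEB2 in 18, the exception being a block of the library-name number (0.43, adjusted p = 0.196). Of 454 member fold changes recomputed, 430 kept their direction and side of the threshold, 17 gained a call, 1 lost it and 6 changed sign, all of uncalled values with 1 library left out. CDH11 then ranged over -0.10 to 0.29 (hepatic co-culture against monoculture), -0.057 to 0.33 (cardiac co-culture against monoculture) and -0.072 to 0.20 (cardiac against hepatic co-culture), and CDH1 over -0.041 to 0.85 (cardiac co-culture against monoculture). ZEB1 gained its hepatic call under upper-quartile scaling (0.21, adjusted p = 0.0323) and without hepatic replicate 1 (0.19, adjusted p = 0.0477), and CDH1 without monoculture replicate 3 (-2.41, adjusted p = 0.0402).

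The cardiac comparison with monoculture was the least stable. Its 1443 called genes became 2219 without the count filter, 2251 with DESeq2 and 0 with the library-number block, which only 2 cardiac libraries share with other groups. Leaving out 1 library gave 263 to 3378: 558, 369 and 518 without monoculture replicates 1, 3 and 4, 523, 263, 397 and 3378 without cardiac replicates 1 to 4. Members called there were 1 under upper-quartile scaling, 3 without the filter, 2 with DESeq2 and 0 to 4 with 1 library left out (2 without monoculture replicate 2 or hepatic replicate 1, 4 without cardiac replicate 4). Upper-quartile scaling raised the share of higher calls to 72.2%, against 59.7%. Between the co-cultures 1080 called genes became 276 and 2 members became 1 with the library-number block, and 676 to 1269 genes with 1 library left out (676 without hepatic replicate 3). The cause of these shifts was not tested. A replicate block gave 4660, 1310 and 891 called genes for hepatic co-culture against monoculture, cardiac co-culture against monoculture and cardiac against hepatic co-culture, with 3, 0 and 2 members, and changed no member's call. Depth limits CDH1, CDH2 and TWIST1.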
